A study of Homo sapiens with 15 samples.

Results

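Silencing of FOXL2 with siRNA in KGN cells was described across all genes of the array, from 6 of the 15 arrays of the series, chosen by their labels. FOXL2 is a forkhead transcription factor that granulosa cells, the hormone-producing cells around the oocyte, need to keep their identity, and a single point mutation of it marks nearly all adult granulosa cell tumours. KGN is a cell line from such a tumour and carries 1 mutated and 1 wildtype allele. In 3 wells the cells were transfected with a GC matched control siRNA, and in the other 3 with stealth siRNA against FOXL2, at passage 8 and 300000 cells per well. The lipid complexes were removed after 7 h, and the RNA was harvested at 24 h, of which 105 ng was labelled for an Affymetrix U133 Plus 2.0 array. Both groups were otherwise the same cells, with no vector. The siRNA was expected to act on both alleles, so loss of the mutant and of the wildtype protein cannot be told apart, and 1 siRNA product stood for the knockdown, so its effects on other transcripts cannot be told apart from those of low FOXL2 either. The 3 wells of a group were separate transfections made on the same occasion, and the p-values therefore measure the spread between wells, which may be small compared with that between occasions. The remaining 9 arrays hold COV434 cells that received expression plasmids, and were used only for values set beside those of KGN.

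Forkhead proteins bind DNA through a winged helix and can raise or lower transcription of nearby genes. In the ovary FOXL2 holds down testis genes such as SOX9, controls genes of steroid synthesis, follicle growth and cell death, and works together with the SMAD proteins that carry signals from activin, TGF-β and BMP. A change at 24 h after transfection can be direct or follow from earlier changes.

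Values are log2 signals of probe sets, the groups of short probes that read a transcript, and a difference of 1 is 2-fold. They are given as control arrays 1, 2 and 3 (RR1003, RR1006 and RR1009 in the labels) and then knockdown arrays 1, 2 and 3 (RR1004, RR1007 and RR1008). A gene was called higher or lower where the adjusted p of the limma test over all 54613 probe sets was under 0.05. A signal was taken as above background where its mean over the 6 arrays exceeded 5.28, the 95th percentile of 143 probe sets for odorant receptors and for KRTAP hair proteins, and 12013 of 19775 genes had such a signal. Correlations between arrays were 0.994 to 0.997 within the groups and 0.994 to 0.996 between them. The excess of 3′ over 5′ signal of ACTB ran from 1.57 to 1.82 in the control arrays and from 1.51 to 2.09 in the knockdown arrays, so that these ranges overlapped. The number of arrays limits the precision, as arrays have no sequencing depth.

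The cells were checked against markers of the ovary. Of 31 granulosa genes measured, 19 were above background, among them follistatin (FST, mean control signal 11.90), KITLG (10.54), INHBA (9.57), INHBB (9.10), GATA4 (8.68), STAR (8.30) and FOXL2 (8.07). CYP19A1, the aromatase gene, was barely above background at 5.56. The receptors FSHR (3.84), LHCGR (2.51) and AMHR2 (5.10), the factors NR5A1 (4.29) and NR5A2 (3.85) and the inhibin α subunit INHA (4.56) were not above it, so these arrays gave no usable level for several defining granulosa genes. Markers of other cells were mostly below background, with 2 of 12 epithelial, 1 of 7 leukocyte, 3 of 8 endothelial, 3 of 9 theca or stroma and 0 of 9 germ cell genes above it. EPCAM (2.95), CDH1 (3.29), PTPRC (3.24), CDH5 (2.95) and DDX4 (2.89) were among those below. No gene of these lists of other cells was called, and the mean signal of those above background overlapped between the groups for 3 of the 4 lists that had any. The exception was the endothelial list, which ran from 6.34 to 6.37 in the control arrays and from 6.39 to 6.44 in the knockdown arrays over 3 genes, and its part in any result was not tested. In a dish of cells, fewer cells with a transcript and less of it in each cell cannot be told apart.

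FOXL2 itself (gene on chr3:138944224-138947137 of GRCh38.p14) had signals of 8.13, 7.91 and 8.18 with control siRNA and 6.24, 6.33 and 6.32 with FOXL2 siRNA. Every knockdown array was far below every control array. The difference was −1.77 ± 0.10 (SE, n = 3 against 3, adjusted p = 0.000556), which is 3.42-fold lower, and the exact permutation test gave p = 0.1, the smallest that 3 arrays against 3 allow. The signal after knockdown was still above background. FOXL2 was the only called member among 38 forkhead genes measured. FOXC2, a forkhead factor of mesoderm, was higher on every knockdown array (8.52, 8.18 and 8.45 against 8.09, 7.63 and 7.88) but did not pass the test (0.51 ± 0.14, adjusted p = 0.358).

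In all, 80 probe sets were called higher after knockdown and 69 lower, which is 0.146% and 0.126% of those tested. They belong to 64 genes that rose (0.324% of 19775) and 53 that fell (0.268%), beside 7 probe sets with no gene symbol and 3 with several. The changes were of modest size, with a median of 0.71 among the genes that rose and −0.80 among those that fell. By over 2-fold, 6 genes rose and 16 fell. With each of the 6 arrays left out in turn, 34 of the 117 genes were called every time, and in single fits 36 (without control array 3) to 77 (without control array 2) were. No called gene changed direction in those fits, which rest on fewer arrays. Over all genes, called or not, the groups did not overlap for 9.66% in the higher and 7.32% in the lower direction. Among genes above background these shares were 12.0% and 9.51%. As 6 arrays can be split 3 against 3 in only 20 ways, many unchanged genes separate like this too. The shares are therefore not counts of shifted genes. An unadjusted p under 0.01 was reached by 1.53% of genes with a higher and 1.13% with a lower signal.

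**Figure D1:**
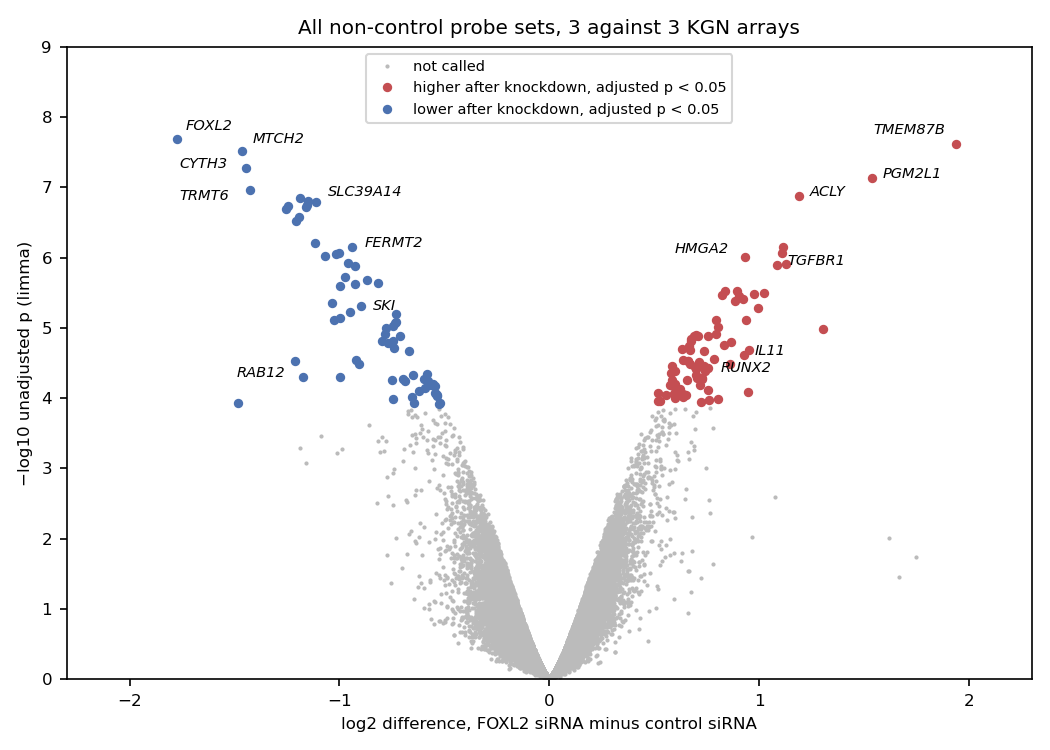
The log2 difference of each of 54613 probe sets (FOXL2 siRNA minus control siRNA, x axis) against −log10 of its unadjusted limma p (y axis), with called probe sets in red (80 higher) and blue (69 lower). FOXL2 (−1.77) and TMEM87B (1.94) lie at the far ends.

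Several probe sets of a gene read different stretches of its transcripts, so that their accord is a check within the same RNA. Of the called genes, 8 rose and 12 fell on 2 or more called probe sets. All 3 probe sets of ACLY were called, with differences from 0.95 to 1.19, and 3 of the 4 probe sets of PPP2R1B above background. Beyond the probe set that gave the value, the genes that rose had 70 further ones above background, of which 55 were also higher and 30 without overlap between the groups. For the genes that fell, 56 of 62 were lower and 34 without overlap. Accord was not complete. The second probe set of MTCH2 differed by 0.003 where the called one differed by −1.46, that of HMGA2 by −0.07 against 0.93, and both others of BMP2K by −0.19 and −0.18 against 0.79.

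**Figure D2:**
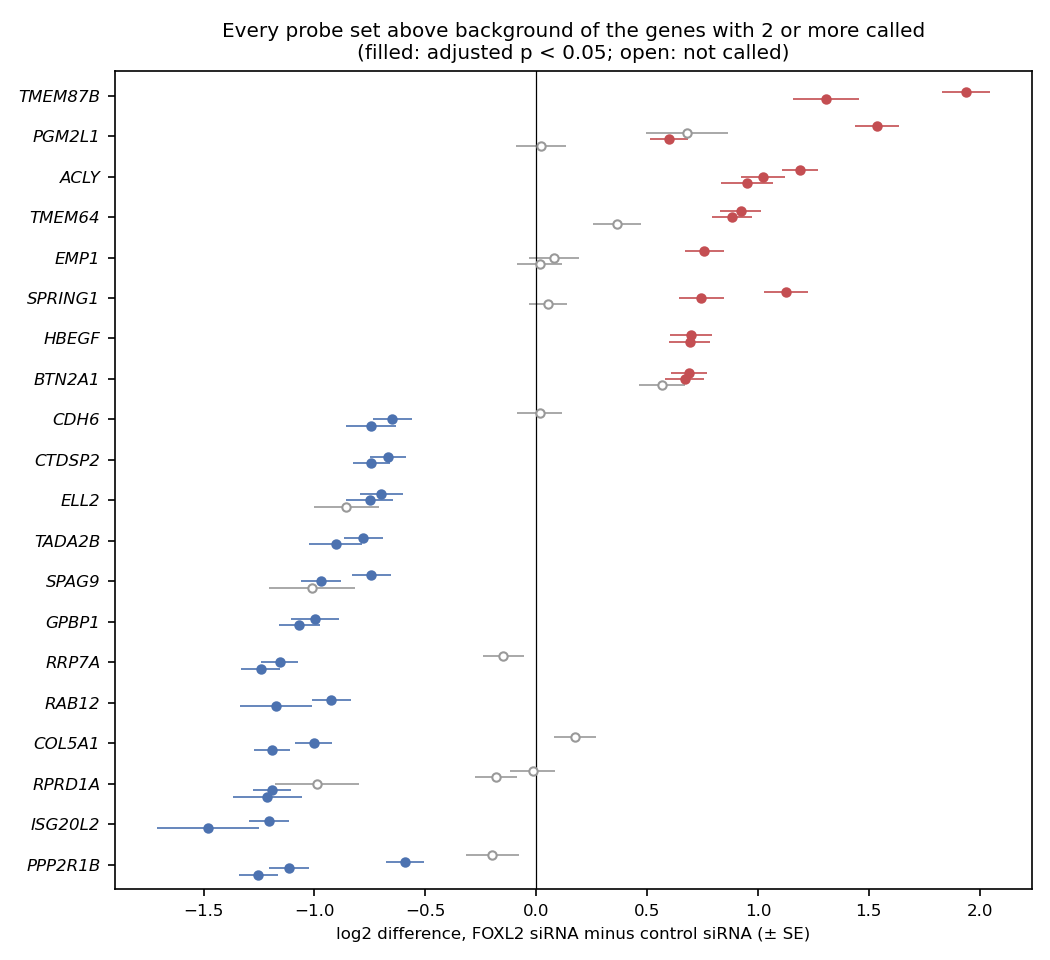
Log2 difference ± SE of every probe set above background (x axis) for the 20 genes with 2 or more called probe sets (y axis), filled where adjusted p was under 0.05. Nearly all points of a gene lie on the same side of 0, while single probe sets of COL5A1 (0.17), CDH6 (0.01) and RPRD1A (−0.02) lie at or past 0.

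The genes that rose were grouped by known function after the calls had been made. The largest rise was that of TMEM87B, a membrane protein of the Golgi and endosomes, with signals of 5.83, 5.53 and 5.65 in control and 7.67, 7.70 and 7.47 in knockdown arrays (1.94 ± 0.11, 3.84-fold, adjusted p = 0.000556). Its second probe set rose by 1.31. No value of either group came near the other. Its paralog TMEM87A moved the other way without passing the test, from 9.97, 9.85 and 9.89 to 9.66, 9.63 and 9.58 (−0.28 ± 0.08, adjusted p = 0.418).

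Enzymes of intermediary metabolism made up the next group. ACLY, which makes cytosolic acetyl-CoA from citrate for lipid synthesis and histone acetylation, went from 10.93, 10.89 and 10.89 to 12.11, 12.14 and 12.02 (1.19 ± 0.08, adjusted p = 0.000792), a rise of 2.28-fold. PGM2L1, which makes glucose 1,6-bisphosphate, went from 6.89, 6.75 and 6.64 to 8.24, 8.25 and 8.41 (1.54 ± 0.10). GCH1, which starts the making of the cofactor tetrahydrobiopterin from GTP, rose by 0.90 ± 0.09, from 6.87, 6.86 and 7.08 to 7.86, 7.86 and 7.81. The groups were well apart for all of these, and each stayed called with any single array left out. TK2, the mitochondrial thymidine kinase (0.79), and SPRING1, which helps to activate the SREBP factors of sterol synthesis (0.74 and 1.13 at its called probe sets), rose too, but were called in 3 and 1 of the 6 fits with an array left out.

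Among 51 genes of acetyl-CoA and fatty acid metabolism ACLY alone was called, and the median difference was 0.01, as over all genes (0.01). Of the 22 genes of citrate, acetyl-CoA and fatty acid synthesis above background, 6 were without overlap in the higher (27.3%, beside 12.0%) and 1 in the lower direction. FASN, the fatty acid synthase, differed by 0.16 ± 0.08 and ELOVL4, an elongase of very long chains, by 0.69 ± 0.12 (adjusted p = 0.0774). None of 22 genes of cholesterol synthesis was called by limma (0 at an unadjusted p under 0.05, which 8.22% of all genes reached), though 17 of them had a positive difference and their median was 0.09. Likewise PGM2L1 was the single called gene of 42 in glucose metabolism, and GCH1 that of 7 in tetrahydrobiopterin synthesis.

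Secreted factors and receptors rose together with regulators of growth. TGFBR1, the kinase receptor through which TGF-β signals, went from 9.43, 9.54 and 9.53 to 10.73, 10.47 and 10.56 (1.08 ± 0.10, adjusted p = 0.00253). IL11, a cytokine that TGF-β induces, went from 7.37, 7.71 and 7.65 to 8.57, 8.34 and 8.60 (0.93 ± 0.12, adjusted p = 0.0169). HBEGF, a ligand of the EGF receptor, rose by 0.69 and 0.70 on its called probe sets, the hormone stanniocalcin (STC1) by 0.70, and INHBB, the activin βB subunit, by 0.60. TNFSF4, a ligand of the TNF family, the decoy chemokine receptor CCRL2 and the adhesion protein FLRT2 rose by 0.58, 0.64 and 0.76. The groups did not overlap for any of these. TGFBR1 was called in every fit with an array left out, whereas IL11 was called in 2 of 6 (highest adjusted p = 0.114), HBEGF and STC1 in 1, and INHBB, TNFSF4, CCRL2 and FLRT2 in 0 (highest adjusted p = 0.22, that of FLRT2).

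Among nuclear factors, HMGA2, an architectural chromatin protein of embryonic and tumour cells, went from 9.37, 9.33 and 9.26 to 10.28, 10.25 and 10.24 (0.93 ± 0.08, adjusted p = 0.00221), with little spread in either group. ZFHX3, a large zinc finger and homeobox factor, rose by 0.87, RUNX2, the factor of bone and cartilage formation, by 0.76, and SMAD5, a carrier of BMP signals, by 0.67. SOX9, the testis-determining factor that FOXL2 is known to hold down, went from 7.43, 7.45 and 7.36 to 7.96, 8.06 and 8.02 (0.60 ± 0.08, adjusted p = 0.0232), and its second probe set by 0.43. PCGF3, a polycomb subunit, rose by 0.59 at its called probe set, while its 2 others above background differed by −0.218 and −0.155. Apart from HMGA2 these calls were less firm, and SOX9, RUNX2 and PCGF3 were called in none of the 6 fits with an array left out (highest adjusted p = 0.173).

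Calcium, ion and lipid handling at membranes formed a further group. ATP2B1, a calcium pump of the plasma membrane, rose by 0.89 ± 0.09 (6.51, 6.57 and 6.46 against 7.49, 7.30 and 7.43), ITPR1, the calcium release channel of the endoplasmic reticulum, by 0.78, and LRRC8A, the volume-regulated anion channel, by 0.70. PLSCR4, a scramblase, and ATP11A, a flippase, rose by 0.80 and 0.72. TMEM64 (0.88 and 0.92), SMIM14 (0.84), TMEM65 (0.83), LEPROT (0.82), which lowers leptin receptor display, and EMP1 (0.76) are further membrane proteins that rose. Of traffic genes, the SNARE-binding STXBP6 (1.00), the phosphoinositide-binding PLEKHA1 (0.97), RAB30 (0.74) and the coat protein SEC24A (0.68) rose, and so did the cytoskeletal linker FRMD5 (1.11). ATP2B1, TMEM64, SMIM14, LEPROT, PLEKHA1 and FRMD5 kept their call with any array left out, and the others lost it in at least 3 of the 6 fits. Further probe sets above background were higher by 0.36 to 0.92 for TMEM64, SMIM14 and PLEKHA1. Those of ITPR1, TMEM65 and LRRC8A were higher by 0.45 to 0.65, and those of RAB30 by 0.06 to 0.69. Those of ATP2B1 (0.08 and 0.09), LEPROT (0.06 and 0.12) and FRMD5 (0.07) differed little and overlapped between the groups. The same held for STXBP6 (0.06 and 0.19) and EMP1 (0.015 and 0.081). The further probe set of SEC24A differed by −0.04.

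TP53INP1, a p53-induced protein of stress and autophagy, went from 7.03, 6.86 and 6.79 to 8.02, 7.93 and 8.06 (1.11 ± 0.09, adjusted p = 0.00218). DRAM1, a lysosomal p53 target, rose by 0.64, TRIB2, a pseudokinase, by 0.71, the kinase STK17B by 0.59 and the early-response gene IER3 by 0.53. Ubiquitin enzymes and adaptors were represented by USP12 (0.60), YOD1 (0.60), JOSD1 (0.65), SPOPL (0.63) and the RNA-binding ubiquitin ligase RC3H2 (0.86). Of the 5 other probe sets of RC3H2 above background, only 2 were higher. At the nuclear envelope LBR (0.71), NUP58 (0.70) and NDC1 (0.52) rose at their called probe sets. The other probe set above background differed by −0.42 for NUP58 and by −0.06 for NDC1. The kinases MAPK6 and BMP2K rose by 0.67 and 0.79, and CENPK, a centromere protein, by 0.73. BTN2A1, a butyrophilin of the cell surface, rose by 0.69 and 0.67 on its called probe sets and was called in 1 of the 6 fits with an array left out. Of these, TP53INP1 kept its call with any array left out. ABHD13 (0.95) was among the larger rises but lay below background.

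**Figure D3:**
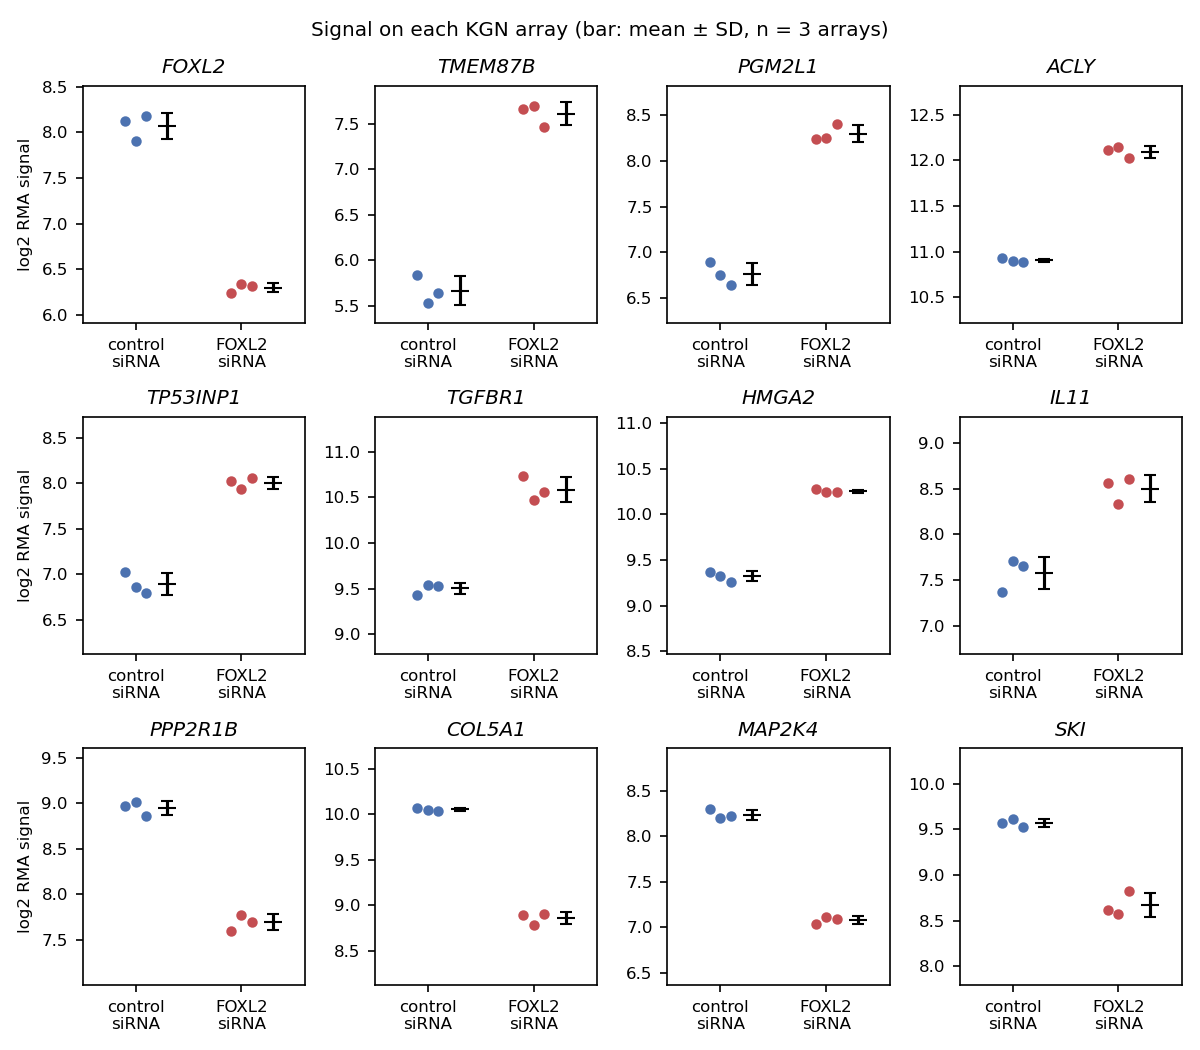
Log2 signal (y axis) on each of the 3 control siRNA (blue) and 3 FOXL2 siRNA (red) arrays for 12 called genes, with the mean ± SD of each group beside the points. The groups do not overlap for any of them, and each panel spans the same 2.6 log2 units.

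Genes that fell had somewhat larger changes. MTCH2, a protein of the outer mitochondrial membrane, fell from 9.21, 9.21 and 9.14 to 7.69, 7.81 and 7.66 (−1.46 ± 0.08, adjusted p = 0.000556) on 1 of its 2 probe sets. CYTH3, an exchange factor that activates ARF GTPases, fell from 9.95, 10.08 and 10.05 to 8.58, 8.49 and 8.67 (−1.45 ± 0.09, adjusted p = 0.00072), and its other probe sets above background were lower by 0.69 and 0.11. The drop of either gene was many times the spread between wells. RAB12, a GTPase of recycling endosomes, was lower by 1.17 ± 0.16 but varied more (8.04, 7.57 and 8.04 against 6.98, 6.49 and 6.66) and was called in 2 of the 6 fits with an array left out. DNAJC6, the clathrin-uncoating auxilin, fell by 0.82 with hardly any spread (9.31, 9.34 and 9.36 against 8.53, 8.52 and 8.53).

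Genes that make and mature RNA were among those that fell. TRMT6, a subunit of the methyltransferase that acts on adenosine of tRNA, went from 8.74, 8.49 and 8.65 to 7.14, 7.20 and 7.26 (−1.43 ± 0.09, adjusted p = 0.000792). ISG20L2, a nuclease of ribosomal RNA maturation, went from 8.45, 8.47 and 8.43 to 7.14, 7.21 and 7.38 (−1.21 ± 0.09), and RRP7A, a factor of the small ribosomal subunit, from 8.02, 8.06 and 8.01 to 6.89, 6.80 and 6.93 (−1.16 ± 0.08). All of these kept their call with any array left out. RPRD1A, which binds the tail of RNA polymerase II, went from 9.09, 9.21 and 9.06 to 8.01, 7.89 and 7.88 (−1.19 ± 0.09). CTDSP2, a phosphatase of that tail, the elongation factor ELL2 and the mediator subunit MED28 fell by 0.74, 0.75 and 0.80, and CELF1, a splicing and decay factor, by 0.54. The first kept its call throughout, and the latter 4 lost it in 3 or more of the 6 fits.

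The 44 measured genes of ribosome making were all above background. Besides RRP7A and ISG20L2, 14 more did not overlap between the groups with a lower signal, 16 in all (36.4%, beside 9.51% of all genes above background), and 3 with a higher one (6.82%, beside 12.0%). Their median was −0.08, against 0.01 over all such genes. UTP15 (−0.31 ± 0.09), NOP2 (−0.26 ± 0.10), WDR75 (−0.26 ± 0.09) and RRP1B (−0.23 ± 0.08), which process or modify ribosomal RNA, had the next lowest p and none passed the test (adjusted p = 0.431 to 0.598). The mean over the 44 genes was 9.05, 9.06 and 9.06 in control and 8.93, 8.93 and 8.97 in knockdown arrays. With the mean of all probe sets of each gene, 10 were lower (22.7%, beside 6.36% of all genes) and 2 higher. Ribosomal proteins did not share this, as none of 60 was called by limma, none was without overlap and 0 had an unadjusted p under 0.05. Among 40 tRNA modifying genes TRMT6 alone was called.

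Several regulators of chromatin and transcription fell, while HMGA2, ZFHX3, RUNX2, SOX9 and PCGF3 had risen at their called probe sets. MORF4L2, a subunit of histone acetyltransferase complexes, went from 12.71, 12.81 and 12.68 to 11.85, 11.84 and 11.89 (−0.87 ± 0.08). HDAC1, a histone deacetylase, went from 10.89, 10.89 and 10.93 to 10.14, 10.20 and 10.18 (−0.73 ± 0.08, adjusted p = 0.00743). The promoter-binding GPBP1 (which fell by 1.07 and 1.00 on its probe sets), MDFIC (which fell by 1.15), an inhibitor of MyoD family factors, and TADA2B (−0.78 and −0.91), of the SAGA coactivator, were lower, as were the histone methylation proteins WDR5 (−0.54) and DOT1L (−0.54). SKI, a repressor of SMAD-driven transcription, went from 9.57, 9.61 and 9.53 to 8.62, 8.58 and 8.82 (−0.90 ± 0.09, adjusted p = 0.00619). Its other probe sets above background differed by −0.64 and 0.10. MORF4L2, GPBP1 and MDFIC kept their call with any array left out, SKI kept it in 5, HDAC1 in 4 and TADA2B in 2 of the 6 fits, and WDR5 and DOT1L in 0.

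Single genes of kinase pathways, matrix and adhesion also fell. MAP2K4, the kinase that activates JNK and p38, went from 8.30, 8.20 and 8.22 to 7.04, 7.12 and 7.09 (−1.16 ± 0.08, adjusted p = 0.000792), and SPAG9, a scaffold of JNK signalling, fell by 0.97 and 0.74 on its called probe sets. PAK2, a kinase downstream of RAC and CDC42, fell by 0.92 ± 0.08, and LOC646214, listed as a transcribed pseudogene, by 1.00. PPP2R1B, a scaffold subunit of protein phosphatase 2A, went from 8.97, 9.01 and 8.86 to 7.60, 7.78 and 7.70 (−1.25 ± 0.09). COL5A1, a chain of type V collagen, went from 10.07, 10.05 and 10.04 to 8.89, 8.79 and 8.91 (−1.19 ± 0.08), and FERMT2, the integrin activator kindlin-2, from 11.65, 11.63 and 11.62 to 10.66, 10.71 and 10.70 (−0.94 ± 0.08). Cadherin 6 (CDH6) fell by 0.65. All but CDH6 kept their call with any array left out. Another cadherin, CDH11, rose by 0.56 ± 0.08 (8.96, 9.03 and 8.94 against 9.61, 9.54 and 9.46, adjusted p = 0.0367) on 1 of its 4 probe sets, all of which were higher, and was called in 0 of the 6 fits with an array left out.

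Among transporters and metabolic genes, SLC39A14, a zinc and iron importer, went from 11.01, 11.03 and 11.03 to 9.88, 9.90 and 9.94 (−1.11 ± 0.08), with almost no spread within a group. SLC39A11, another zinc importer, fell by 0.60, the monocarboxylate transporter SLC16A9 by 0.92, and BCAT2, the mitochondrial transaminase of branched-chain amino acids, by 1.04 ± 0.11. CSF2RB, the receptor chain shared by IL3, IL5 and GM-CSF, fell from 7.074, 7.238 and 6.959 to 6.247, 5.999 and 5.944 (−1.03 ± 0.11). PMAIP1, a death inducer of the BCL2 family, was called at a second probe set (−0.69 ± 0.10), where it went from 8.32, 8.36 and 8.45 to 7.67, 7.84 and 7.56. At its brighter probe set it was lower by 0.73 ± 0.22, with 10.53, 9.58 and 10.32 against 9.57, 9.51 and 9.17, and was not called. SPATA18, a p53 target of mitochondrial quality control, fell by 0.78, and C6orf120 by 0.96. SLC39A14, BCAT2 and C6orf120 kept their call with any array left out, while CSF2RB kept it in 4, SPATA18 in 3, SLC16A9 in 2 and SLC39A11 and PMAIP1 in 0 of the 6 fits. MPP7 fell by 1.00 but lay below background on the mean of the 6 arrays.

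TGF-β and activin signals run from ligands through type I and type II receptors to SMAD2 and SMAD3, and are curbed by SKI, SKIL, SMAD7 and the SMURF ligases. Of 59 genes of this arm measured, 3 rose (TGFBR1, INHBB and IL11) and 1 fell (SKI). Of the 50 above background, 13 were without overlap in the higher (26%, beside 12.0%) and 4 in the lower direction (8%, beside 9.51%). Those 4 were inhibitors of the pathway, but of the 16 inhibitors and latency proteins 3 others were without overlap in the higher direction (FSTL3 by 0.16, PMEPA1 by 0.20 and LTBP4 by 0.27), and the median of the 16 was near 0 (−0.003). SKIL went from 9.32, 9.44 and 9.33 to 9.03, 9.05 and 9.01 (−0.33 ± 0.08, adjusted p = 0.279), SMURF1 from 8.18, 7.92 and 8.09 to 7.77, 7.73 and 7.68 (−0.33 ± 0.09, adjusted p = 0.397), and SMAD7 was the fourth. With the mean of its probe sets SKIL differed by 0.02, so its direction rests on the probe set chosen.

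On the ligand side, TGFB2 was higher by 0.42 ± 0.10 (9.79, 9.59 and 9.57 against 10.17, 9.95 and 10.08, adjusted p = 0.256) and INHBA, the activin βA subunit, by 0.31 ± 0.10 (adjusted p = 0.501). Neither passed the test, though the groups did not overlap. TGFBR1 was the only receptor called of 8, and the signal carriers SMAD2, SMAD3 and SMAD4 all overlapped between the groups. Of the 16 target genes above background, 3 were without overlap in the higher (18.8%, beside 12.0% of all genes) and 0 in the lower direction (beside 9.51%). TGFBI, a matrix protein that TGF-β induces, was higher by 0.47 ± 0.10 (9.09, 9.27 and 9.32 against 9.66, 9.60 and 9.83, adjusted p = 0.175). The other 13 targets, among them COL1A1, CCN2 and FN1, overlapped. Mean signals over the 50 genes were 9.11 to 9.12 in control and 9.18 to 9.20 in knockdown arrays.

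**Figure D4:**
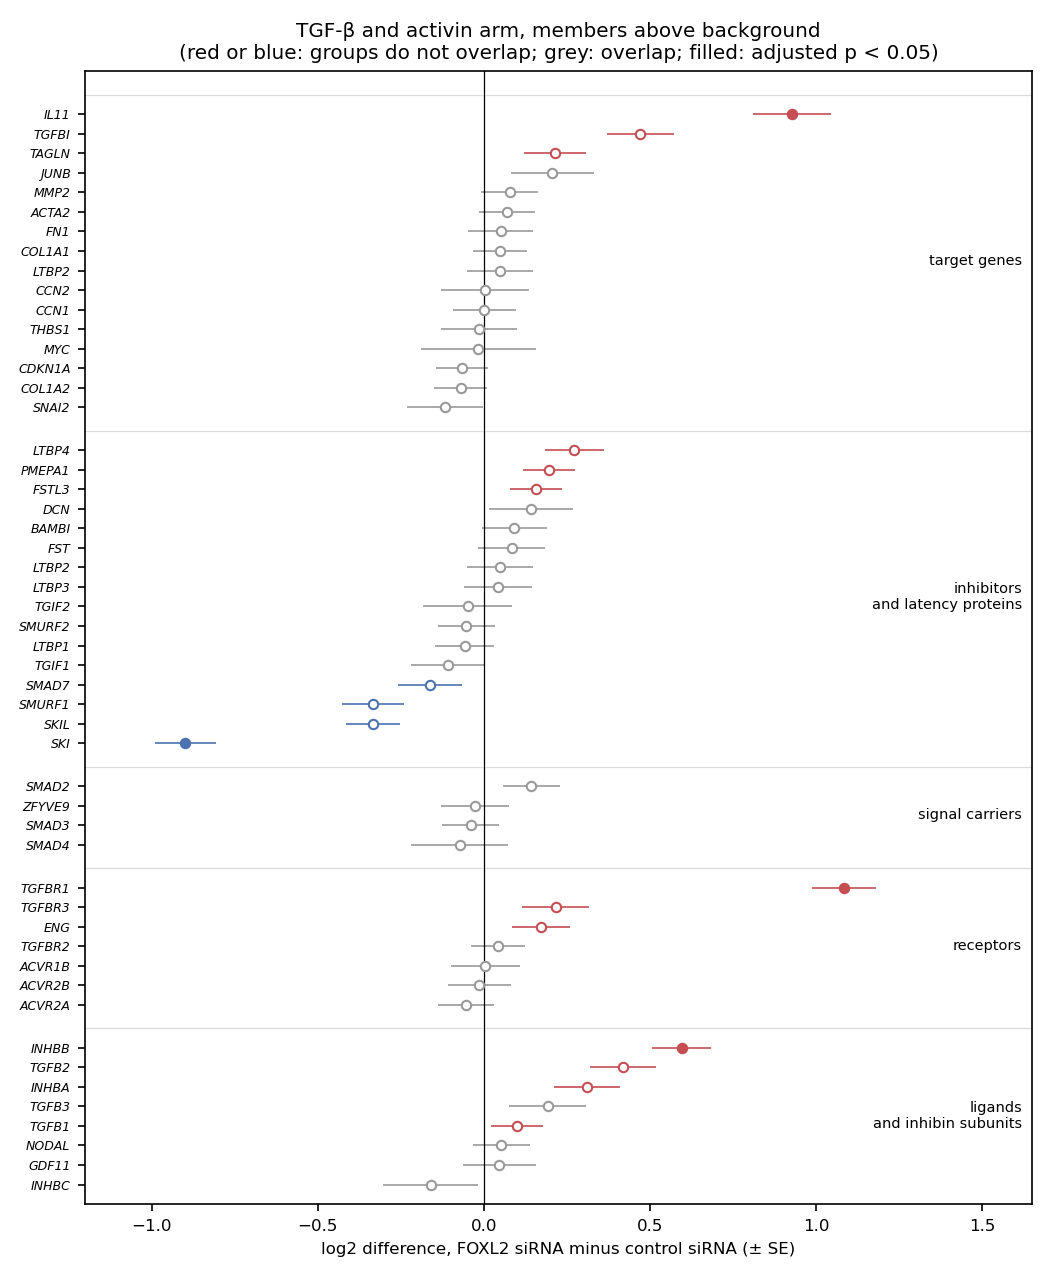
Log2 difference ± SE (x axis) of the members of the TGF-β and activin arm above background, by role in the pathway, coloured where the groups do not overlap and filled where called. TGFBR1, IL11 and INHBB stand out to the right and SKI to the left, and most SMAD genes and targets lie near 0.

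In the BMP arm, 43 genes were measured and SMAD5 was the only one called, at a second probe set. At the brighter one it differed by 0.43 ± 0.15. SMAD1, the closest relative of SMAD5, was lower on both its probe sets above background (−0.26 ± 0.09 at the brighter, adjusted p = 0.51), and the inhibitory SMAD6 was higher by 0.27 ± 0.09. BMPR1B, a type I receptor of granulosa cells, was lower by 0.34 ± 0.12 (6.598, 6.319 and 6.269 against 6.121, 6.169 and 5.867), and did not pass the test.

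Of 31 granulosa identity genes, FOXL2 and INHBB alone were called, beside 0.324% of all genes called higher and 0.268% lower. Of the 19 above background, 5 including FOXL2 were without overlap in the lower direction (26.3%, beside 9.51%). In the higher direction 3 were (15.8%, beside 12.0%). With the mean of all probe sets of a gene, 3 of the 31 were lower (9.68%, beside 6.36%) and 3 higher (9.68%, beside 8.85%). CYP19A1 was lower by 0.20 ± 0.09 (adjusted p = 0.674) close to background, STAR differed by 0.11 ± 0.08 and FST by 0.08 ± 0.10. Of 21 Sertoli cell and testis genes, SOX9 alone was called, and CITED4 was higher by 0.29 ± 0.09 (adjusted p = 0.461). No gene of 27 in steroid synthesis was called by limma, and 2 had an unadjusted p under 0.05 (7.41%, beside 8.22% of all genes). Among these, SCARB1, the HDL receptor that brings in cholesterol, was lower on both its probe sets (8.35, 8.36 and 8.44 against 8.06, 8.06 and 8.03, a difference of −0.33 ± 0.08, adjusted p = 0.266).

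Some growth factors and cytokines were higher without overlap at the brightest probe set of each gene. Of 45 growth factor ligands and receptors above background, 10 were without overlap in the higher direction (22.2%, beside 12.0%) and 0 in the lower one, although HBEGF alone was called. FGF5 was higher by 0.61 ± 0.11 (6.50, 6.61 and 6.39 against 7.23, 6.92 and 7.16, adjusted p = 0.0844), VEGFA by 0.45 ± 0.09 (8.47, 8.45 and 8.45 against 8.81, 9.02 and 8.88, adjusted p = 0.124) and FGF1 by 0.42 ± 0.08 (adjusted p = 0.109). PDGFB and PDGFA were higher by 0.34 and 0.30. These are ligands that act on vessels and fibroblasts. The median over the 45 was 0.002, against 0.009 over all genes above background, so the list as a whole was not shifted. With quantile normalisation 9 of the 45 were higher and 2 lower. With the mean of all probe sets of a gene 8 of all 67 measured were higher (11.9%, beside 8.85% of all genes) and 4 lower (5.97%, beside 6.36%). The excess of higher members therefore depends on the probe set chosen.

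Of 22 chemokines and interleukins above background, 6 were without overlap in the higher direction (27.3%, beside 12.0%) and 0 in the lower one (beside 9.51%). CXCL8, the neutrophil chemokine, was higher by 0.51 ± 0.10 (9.89, 10.23 and 10.02 against 10.60, 10.58 and 10.50, adjusted p = 0.139), and IL6 by 0.36 ± 0.08 (7.63, 7.70 and 7.66 against 8.03, 7.95 and 8.09, adjusted p = 0.228). Of 25 cytokine receptors above background, 5 were without overlap in the higher (20%) and 1, CSF2RB, in the lower direction (4%). IL7R was higher by 0.49 ± 0.08 (9.18, 9.24 and 9.12 against 9.66, 9.69 and 9.65, adjusted p = 0.059) and LIFR, which binds LIF, by 0.38 ± 0.11. With quantile normalisation 4 of the 22 ligands and 7 of the 25 receptors were higher. With the mean of all probe sets of a gene, 9 of all 69 ligands measured were higher (13.0%, beside 8.85% of all genes) and 1 lower. Of all 40 receptors measured, 2 were then higher (5.00%) and 1 lower (2.50%), so the excess of higher receptors was lost.

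Among 20 measured genes of embryonic type or regulated by the microRNA let-7, HMGA2 and TGFBR1 rose and 6 of 16 above background were without overlap in the higher direction (37.5%, beside 12.0%), 0 in the lower one (beside 9.51%). DICER1, which cuts microRNA precursors and is itself on that list, was higher by 0.55 ± 0.11 (7.96, 8.16 and 7.83 against 8.68, 8.42 and 8.48, adjusted p = 0.161), and PLAGL2, a growth-promoting zinc finger factor, by 0.29 ± 0.10. This list shares TGFBR1 with the TGF-β arm. The median over the 16 above background was 0.024, against 0.009 over all such genes, so the list as a whole was little shifted. Of the 20 measured, 8 had a negative difference. At the mean of all probe sets of a gene, 5 of the 20 were without overlap in the higher direction (beside 8.85% of all genes) and 0 in the lower one (beside 6.36%). Among 18 genes of the RNA interference machinery none was called by limma (4, or 22.2%, at an unadjusted p under 0.05, beside 8.22% of all genes). AGO4 was higher by 0.41 ± 0.11 and TNRC6B, its silencing partner, lower by 0.27 ± 0.09.

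**Figure D5:**
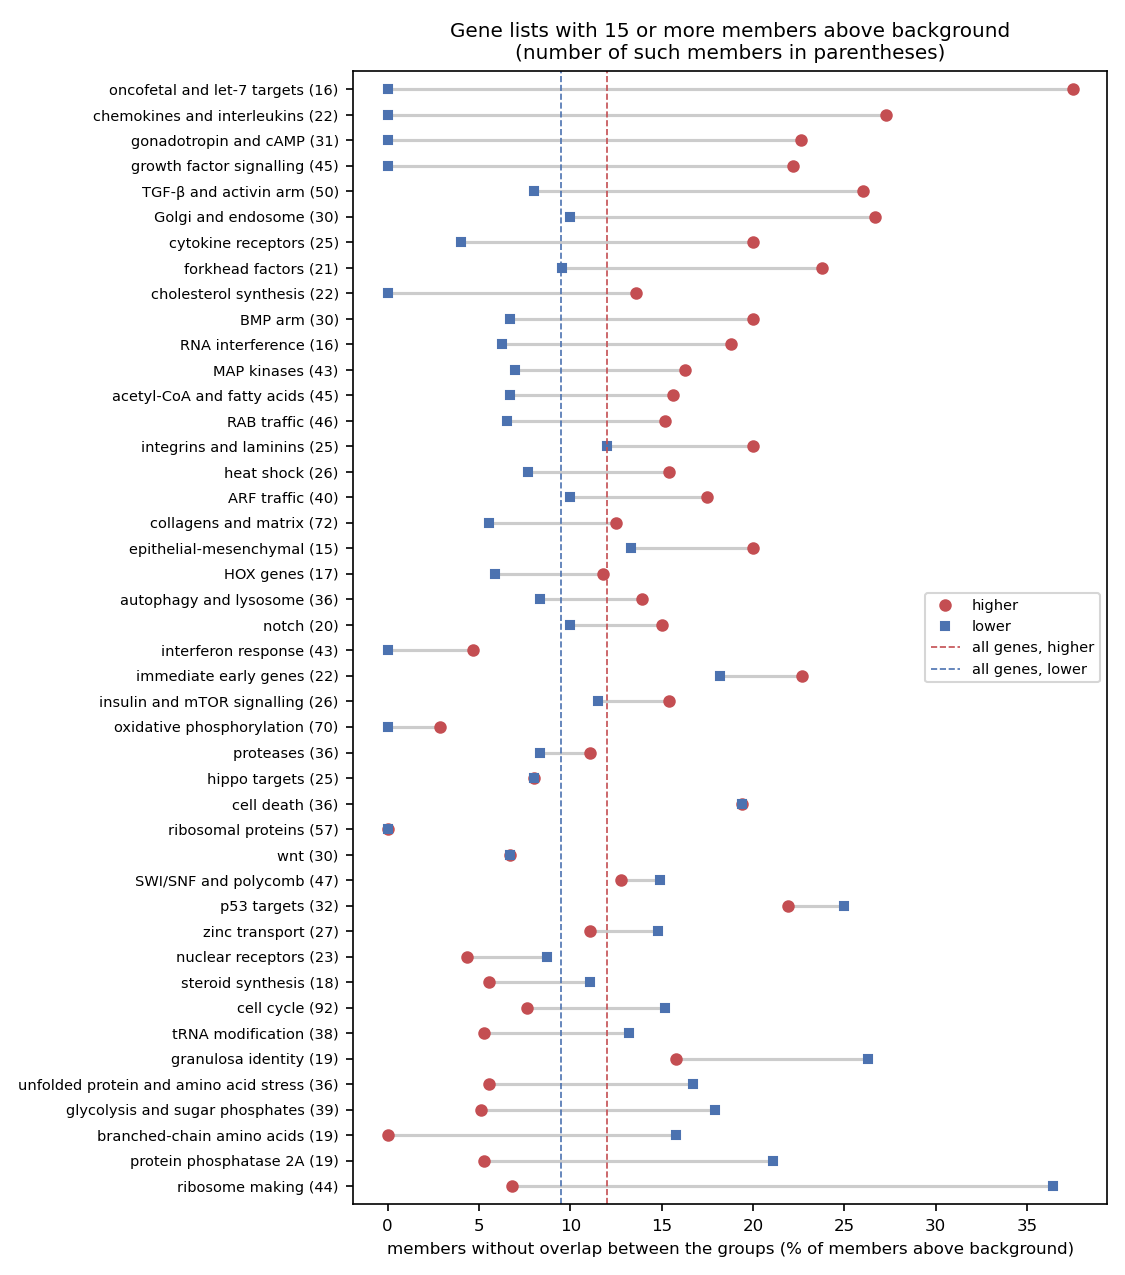
Share of the members above background whose groups do not overlap (x axis, % of members), higher (red) and lower (blue), for each gene list with 15 or more such members (y axis), with the shares over all genes as dashed lines (12.0% higher, 9.51% lower). Ribosome making (36.4% lower) and the embryonic and let-7 genes (37.5% higher) lie farthest from the lines.

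In most other pathways few members were called. As 0.324% of all genes were called higher and 0.268% lower, such counts say little about whole families. Of 54 MAP kinase genes, MAP2K4 and SPAG9 fell and MAPK6, an atypical kinase, rose from 10.46, 10.44 and 10.33 to 11.09, 11.04 and 11.11 (0.67 ± 0.08), while the median was 0.04. PPP2R1B was the only called gene of 20 in protein phosphatase 2A, and the list had a median near 0 (−0.002). Of its 19 genes above background, 4 were without overlap in the lower direction (21.1%, beside 9.51%) and 1 in the higher. With quantile normalisation 2 of the 19 were lower (10.5%). COL5A1 was the only one of 102 collagen and matrix genes. CYTH3 was alone among 46 genes of ARF traffic, and RAB12 and RAB30 were the called ones of 57 RAB genes, in opposite directions. GOLIM4, a Golgi protein, was higher by 0.36 ± 0.08 without passing the test. Of 12 genes that act on the tail of RNA polymerase II, RPRD1A and CTDSP2 fell, while CTDSPL2, a relative of CTDSP2, was higher on all 3 of its probe sets above background.

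Of 32 listed p53 targets, TP53INP1 rose and SPATA18 and PMAIP1 fell, and DRAM1, a target that the list does not hold, rose, so the called targets went in opposite directions. Of the 32, 7 were without overlap in the higher (21.9%, beside 12.0%) and 8 in the lower direction (25%, beside 9.51%). CCNG2, a cyclin that slows the cycle, was higher by 0.32 ± 0.09, and PLK2 and SESN2 were lower by 0.23 ± 0.09 and 0.32 ± 0.12. None of 94 cell cycle genes was called by limma (8, or 8.51%, at an unadjusted p under 0.05), with a median of −0.02. Among 25 genes of the Hippo pathway none was called either (4, or 16%, at an unadjusted p under 0.05, beside 8.22% of all genes). LATS2, a kinase that restrains YAP, was higher by 0.37 ± 0.10 and its partner MOB1B lower by 0.33 ± 0.09. AXL, a receptor kinase induced by YAP, was lower by 0.39 ± 0.11 (12.74, 12.44 and 12.61 against 12.21, 12.33 and 12.08, adjusted p = 0.389).

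Transfection with lipid and double-stranded RNA can set off interferon genes, and these varied between wells within both groups. The mean signal of 43 such genes above background was 8.11, 8.62 and 8.63 in control and 8.23, 8.48 and 8.07 in knockdown arrays. Both groups held wells with low and with high values. None of 49 measured was called by limma, and 8 had an unadjusted p under 0.05 (16.3%, beside 8.22% of all genes). Of the 43, 2 were without overlap in the higher and 0 in the lower direction, while the median was −0.20. None of 36 genes of the unfolded protein and amino acid stress response and none of 27 heat shock genes was called by limma, nor was any of 76 genes of oxidative phosphorylation, and 4, 3 and 0 of them had an unadjusted p under 0.05.

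Weaker shifts were taken as consistent where a gene that was not called had 2 or more probe sets above background and all of them were without overlap in the same direction. Of 5349 genes with enough probe sets, 87 met this in the higher (1.63%) and 63 in the lower direction (1.18%), and 16 and 8 of them did so on 3 or more probe sets. The largest mean difference among the higher ones was that of CTDSPL2 (0.66 over 3 probe sets). It was followed by PLAU, the urokinase that cuts plasminogen (0.53), by the synaptic scaffold HOMER1 (0.52), by DENND1B, which activates RAB35 (0.51), by ABHD5, a coactivator of triglyceride breakdown (0.49), and by the histone deacetylase HDAC4 (0.48). PLAU went from 7.63, 7.86 and 7.67 to 8.26, 8.51 and 8.34, and came close to the threshold (adjusted p = 0.0511).

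Further genes of this kind with a higher signal were PKIB, an inhibitor of protein kinase A (0.47), PDGFB (0.39), NNMT, which methylates nicotinamide (0.38), the adenosine deaminase ADA (0.38), FGF1 (0.36 over 3 probe sets), the GTPases RRAD (0.36) and RAB18 (0.39), CCNG2 (0.32) and the collagen COL7A1 (0.32). FGF1 rested on a tight set of values, with 7.34, 7.31 and 7.23 against 7.71, 7.71 and 7.73 at its brightest probe set.

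Among the lower ones, WWP1, a ubiquitin ligase, had the largest mean difference (−0.69), with 8.94, 8.45 and 8.64 against 7.85, 8.13 and 7.63 at its brightest probe set. DCAF10, an adaptor of a ubiquitin ligase, followed with −0.59 over 3 probe sets and little spread (7.92, 7.86 and 7.92 against 7.45, 7.43 and 7.37, adjusted p = 0.059). ZNF618 (−0.55), EXOC6, a subunit of the exocyst (−0.52), TMEM39A (−0.47), RMND5A, of the CTLH ubiquitin ligase (−0.47), the phosphatase-related MTMR9 (−0.44), TOLLIP, which dampens Toll-like receptor signals (−0.41), and SPSB1 (−0.39) came next. The netrin receptor UNC5B (−0.39), the hyaluronan synthase HAS2 (−0.38), AMD1, an enzyme of polyamine synthesis (−0.36), the protease cathepsin C (CTSC, −0.34 over 4 probe sets), SMAD1 (−0.33) and SCARB1 (−0.30) were also lower. GPBP1L1, a paralog of the called GPBP1, was lower by 0.34.

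FOXL2 and other forkhead factors bind the letters of the forkhead motif, and FOXL2 has also been described to bind an element that begins with GTCAAGG. Promoters of RefSeq (GRCh38.p14, 300 bases, 250 before the gene start) were matched for 94 of the 117 called genes and searched on both strands. The forkhead letters searched were GTAAACA (in 3.41% of all promoters), ATAAACA (4.33%), GTAAATA (2.77%) and ATAAATA (5.14%), and the other word was GTCAAGG. The forkhead letters stood in 3 of 54 promoters of genes that rose (5.56%) and in 4 of 40 of genes that fell (10.0%), beside 7.43% of 9805 promoters of genes above background and 13.9% of all 27305. The letters GTCAAGG stood in 3 of 54 (5.56%) and 1 of 40 (2.50%), beside 2.74% and 3.08%. The shares of called genes rest on 1 to 4 promoters each and are given with no test. The matches of 4 called genes are shown to let them be set beside the values above, with the motif in capitals, read along the gene's strand.
TRIB2 (rose), chr2:12716686-12716704, plus strand: tTGTTTACctccccggccg
DNAJC6 (fell), chr1:65264684-65264712, plus strand: tttggaatttgTGTTTACgtctgccttca
CTDSP2 (fell), chr12:57846774-57846802, minus strand: cagccgcgggtTGTTTATctggagtacgg
MDFIC (fell), chr7:114921877-114921905, plus strand: tcaaccgagggGTCAAGGtttcaaacgca
In TRIB2, DNAJC6 and CTDSP2 the forkhead letters lie on the opposite strand and are shown as their reverse complement. A match is a string of letters and not a shown binding site, and enhancers and other distant sequence were not searched.

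The genes that changed in KGN were also read in COV434, another line described as of granulosa cell tumour origin, after transfection with empty vector, wildtype FOXL2 or mutant FOXL2 (3 arrays each). Of the 117 called genes, 94 were above background there (5.05). None of them was called by limma in that line for mutant against empty vector, for wildtype against empty vector or for mutant against wildtype. The share of all probe sets called in COV434 was not counted, so the lack of calls says little about these genes in particular. An unadjusted p under 0.05 was reached by 12, 11 and 1 of the 94, beside 16.4%, 13.2% and 0.841% of all 22123 probe sets above background there, and these comparisons share arrays. Differences ran from −0.74 to 0.63 with mutant and from −0.51 to 0.79 with wildtype FOXL2 against empty vector, and from −0.24 to 0.35 between mutant and wildtype. TGFBR1 differed by 0.17 ± 0.17 with mutant and 0.31 ± 0.17 with wildtype FOXL2, ACLY by 0.15 ± 0.09 and 0.11 ± 0.09, and SKI by 0.28 ± 0.13 and 0.21 ± 0.13. IL11, SOX9, COL5A1 and FOXL2 itself were below background in COV434. According to the authors the FOXL2 probe set lies outside the cloned sequence, so these arrays cannot read FOXL2 from the plasmids. The authors measured its overexpression by RT-qPCR and Western blot.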

How the data were processed

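The deposited table gives log2 signals, which the authors computed from U133 Plus 2.0 scans by RMA with background correction in R, after AffyQCReport, with versions not given in the sources used here. From these, 54613 of 54675 probe sets were tested, with 62 array controls left out. A single gene symbol was held by 41091, several by 1801 and none by 11721, which gives 19775 genes. Groups came from the sample titles, which carry no replicate numbers. The 6 KGN arrays were fitted with lmFit and eBayes of limma 3.58.1 in R 4.3.3 (two-sided, Benjamini-Hochberg over all probe sets, threshold 0.05), and the fit was tested on simulated data. A called gene is given at its called probe set of highest KGN mean, and any other gene at its probe set of highest KGN mean. Named were FOXL2, the 25 largest called changes per direction, genes with 2 or more called probe sets, called list members, up to 4 members per list of lowest p, and up to 25 weaker consistent shifts per direction. The members and lists were chosen with earlier results of these data known. Gene lists were written from general knowledge and described by counts and medians, with no set test. RMA compresses differences near background, and x_at probe sets can read related transcripts. COV434 values came from a separate fit of those 9 arrays and were not set against KGN levels. Alternatives tried were quantile normalisation, median centring, a filter on dim probe sets, a variance trend, array weights, all 15 arrays in the fit, other rules for the probe set of a gene, and each KGN array left out.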

Additional observations from a re-analysis of the deposited data

How the results depend on the processing

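FOXL2 was called lower under every alternative tried. With probe sets above background only, 148 were called higher and 118 lower, and 2321 and 1970 were without overlap between the groups. That fit held fewer probe sets, and the cause of the change in calls was not tested. With a variance trend 170 were called higher and 137 lower, and 31 genes on 2 or more probe sets in place of 20; the cause was not tested. Quantile normalisation, median centring, array weights and the fit of all 15 arrays kept these counts within 1.5 times of 80 and 69, and of the 117 called genes 114, 113, 117 and 91 kept their call. Leaving out 1 array in turn gave 16 to 51 probe sets called higher, 29 to 69 lower, 5 to 18 genes with 2 or more called, and 6397 to 8253 higher and 5538 to 6550 lower without overlap, which fewer arrays make easier. Of the 117 genes, 45, 77 and 36 stayed called without control arrays 1, 2 and 3, and 37, 45 and 43 without knockdown arrays 1, 2 and 3. With the probe set of highest mean over all 15 arrays 101 kept their call, and MTCH2 (0.003) and HS2ST1 (0.04) changed sign. With the mean of all probe sets of a gene 65 did, and NUP58 (−0.096) changed sign. Of genes that were not called, SKIL (0.02) and CREB1 (−0.004) also changed sign with that mean. The list counts under quantile normalisation and median centring were added after the data had been seen. No paired analysis was possible because the labels give the arrays no replicate numbers. Below background, differences are compressed and single calls there (5 genes) say little about size.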
